A study of Homo sapiens with 6 samples.

Results

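MYCN and the 9 other genes of the MYC and MAX network were followed in all 6 RNA-seq libraries of WT and PARP3-/- LN229 cells. The 10 genes were taken from the deposited table by name, out of 33841 genes listed and 17144 tested, and comprised MYCN, MYC, MYCL, MAX, MNT, MXI1, MXD1, MXD3, MXD4 and MGA. MYCN was placed at the head of the set because its RNA was known to be far lower in PARP3-/- cells, that is, it was chosen by its counts in these libraries, so its difference is given as a description without a test. The other 9 genes were listed as relatives and partners of MYCN, and the question asked of them was whether any of them rose where MYCN fell.

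LN229 is an established human glioblastoma cell line, grown in serum-containing medium. WT cells and cells with a CRISPR-nickase disruption of PARP3, the gene of an ADP-ribosyltransferase that acts at DNA breaks, were compared with 3 biological replicates each. Which PARP3-/- clone was sequenced is not stated, so an effect of the genotype and a property of a clone cannot be told apart. Total counts were 29692065 to 46010369 per library, and PARP3 itself had 942 to 1273 counts in WT and 574 to 1004 in PARP3-/- libraries, ranges that overlap and do not check the labels.

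MYC proteins are transcription factors that bind DNA as pairs with MAX, prefer the E-box sequence CACGTG, and raise the output of genes for growth, ribosome production and metabolism. MAX also pairs with the MXD proteins, MXI1, MNT and MGA, which occupy similar sites and mostly repress, through SIN3 corepressors or, for MGA, through a Polycomb complex. MYCN is best known from neuroblastoma and from the developing nervous system, whereas MYC is used by most dividing cells.

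The upstream sequences of MYCN, MXD4 and MNT are shown because MYCN was the member with the large difference and the others carried the exact E-box among the members matched. RefSeq promoter windows of GRCh38.p14, which run from 250 bases before to 50 bases after a start, were found for 9 of the 10 members, and MYC had no entry. Only the 250 bases before each start are printed, 5′ to 3′ on the strand of the gene, in the order chr2:15940300-15940549 (plus strand), chr4:2262110-2262359 (minus strand) and chr17:2401061-2401310 (minus strand). Capitals mark the E-box CACGTG in MXD4 and MNT, and in MYCN the run of 2 overlapping E2F-type words.
MYCN: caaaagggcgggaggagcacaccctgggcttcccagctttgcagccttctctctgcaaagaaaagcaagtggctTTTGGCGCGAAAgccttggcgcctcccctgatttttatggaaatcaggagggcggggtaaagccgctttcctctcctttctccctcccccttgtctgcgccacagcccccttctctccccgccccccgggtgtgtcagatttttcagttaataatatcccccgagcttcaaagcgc
MXD4: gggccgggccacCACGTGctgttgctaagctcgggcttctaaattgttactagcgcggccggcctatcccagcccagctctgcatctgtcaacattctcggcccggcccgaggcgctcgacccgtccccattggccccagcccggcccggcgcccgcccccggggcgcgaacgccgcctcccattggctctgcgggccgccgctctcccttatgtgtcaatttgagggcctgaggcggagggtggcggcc
MNT: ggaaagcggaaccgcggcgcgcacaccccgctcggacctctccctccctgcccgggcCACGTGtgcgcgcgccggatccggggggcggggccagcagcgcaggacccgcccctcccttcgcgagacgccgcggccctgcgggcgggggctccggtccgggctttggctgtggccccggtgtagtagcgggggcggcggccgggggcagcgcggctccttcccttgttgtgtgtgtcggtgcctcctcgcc

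The word CACGTG, which reads the same on both strands, was found 238 bases before the start of MXD4 and 193 bases before that of MNT, in 2 of the 14 windows of the members. It was present in 7.26% of all 35116 windows, and in 31 of the 73 windows (42.5%) of a list of known MYC target genes. The looser form CANNTG was in 9 of the 14 member windows, beside 68.7% of all windows. The E2F-type words TTTGGCGC and TTTCGCGC, searched on both strands after the MYCN sequence had been read, began 176 and 172 bases before the start of MYCN and overlapped there, and another lay 65 bases before a start of MGA. They were found in 1.15% of all windows. These matches describe letters in the windows and do not show that a factor was bound.

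MYCN RNA was nearly lost in PARP3-/- cells. MYCN (ENSG00000134323, hg38 chr2:15940564-15947007) had 553, 376 and 867 counts in the WT libraries and 16, 6 and 9 in the PARP3-/- libraries. After scaling to CPM (counts scaled by the effective library size of each library), these were 15.1, 8.96 and 21.1 CPM in WT and 0.531, 0.135 and 0.238 CPM in PARP3-/- libraries. The groups were far apart, since the lowest WT library was 16.9-fold above the highest PARP3-/- library, whereas the WT libraries spread over 2.36-fold among themselves.

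The mean of MYCN was 15.1 ± 6.09 CPM (SD, n = 3) in WT and 0.301 ± 0.206 CPM (SD, n = 3) in PARP3-/- cells. The fitted log2 difference was −5.72 (SE 0.51), a 52.9-fold lower level, which placed MYCN 101st of 17144 tested genes from the most negative. Every PARP3-/- library held more than the 3 counts taken as the limit of detection, so a low residual level was measured in each of them. These values are those for which MYCN was chosen.

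**Figure D1:**
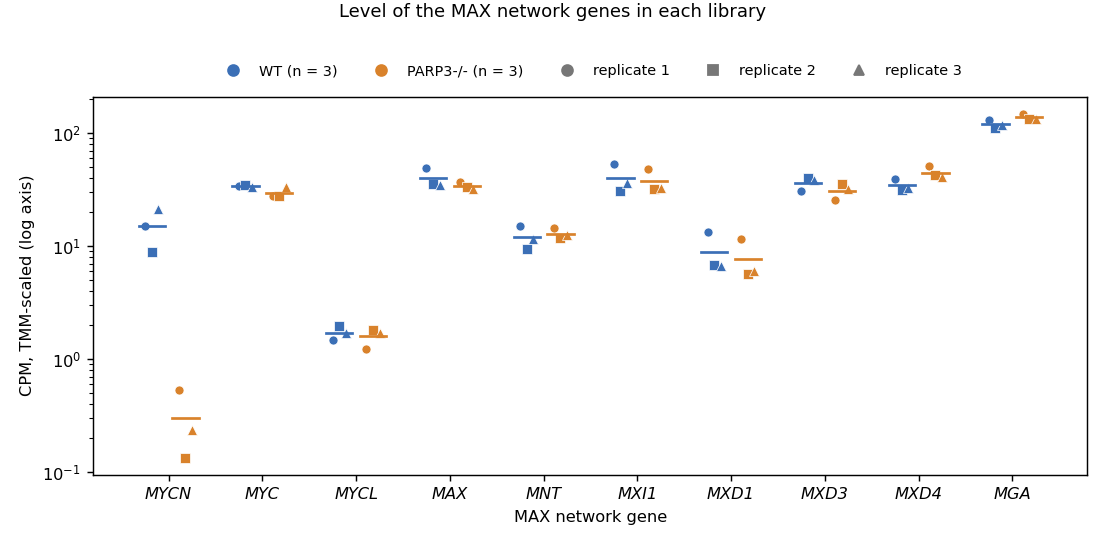
Level of the 10 MAX network genes in CPM on a log axis, with 1 point per library for the 3 WT (blue) and 3 PARP3-/- (orange) libraries, the replicate number shown by the symbol, and a bar at the mean of each genotype. MYCN is the gene whose genotypes stand far apart, MXD4 and MGA are higher in every PARP3-/- library by a small amount, and the points of the other 7 genes overlap between genotypes.

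None of the 9 other members passed the test in the fit across all genes. By edgeR with Benjamini-Hochberg adjustment, 0 of the 9 passed an adjusted p of 0.05, beside 4.7% of all tested genes (3.33% lower and 1.36% higher in PARP3-/- cells). At an unadjusted p under 0.05 there was 1 of 9, MXD4, beside 16.3% of all tested genes, and DESeq2 called 0 of 9 beside 5.93% of the genes it tested (3.84% lower and 2.09% higher). Under stricter limits in edgeR (adjusted p under 0.001 and a log2 difference beyond 1) 0 of the 9 were called, beside 0.443% of tested genes lower and 0.035% higher. The log2 differences of the 9 ran from −0.24 to 0.38 with a median of −0.11, beside −0.01 for all tested genes, with 6 below 0 and 3 above. MYCN is not among these counts.

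Libraries of replicate 1 deviated together from their genotype means (correlation 0.633). Those of replicate 2 did too (0.465), but deviations from a genotype mean cancel out over its replicates. A shift of replicate 1 alone, shared by the genotypes, therefore gives positive correlations among replicates 2 and 3. The value of 0.465 thus does not show that replicate 2 matches by number. For replicate 3 the match was not clear either. Its correlation of 0.208 was below those of WT 3 with PARP3-/- 2 (0.237) and WT 2 with PARP3-/- 3 (0.361). The numbers were also used as a block in the fit, with this limit on the pairing. With that replicate block, 4 of the 9 passed the threshold in edgeR, MAX and MXD3 lower and MXD4 and MGA higher in PARP3-/- cells. The block also raised the calls over all tested genes to 24.3% (12.5% lower and 11.8% higher), so the count among the members is to be read against that share. For 5 of the 9, each of the 3 pairs of libraries differed in 1 direction, beside 54.3% of all tested genes, and 2 of the 9 had separate genotype ranges in CPM, both higher in PARP3-/- cells, beside 22.8% in either direction (12% lower and 10.8% higher).

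**Figure D2:**
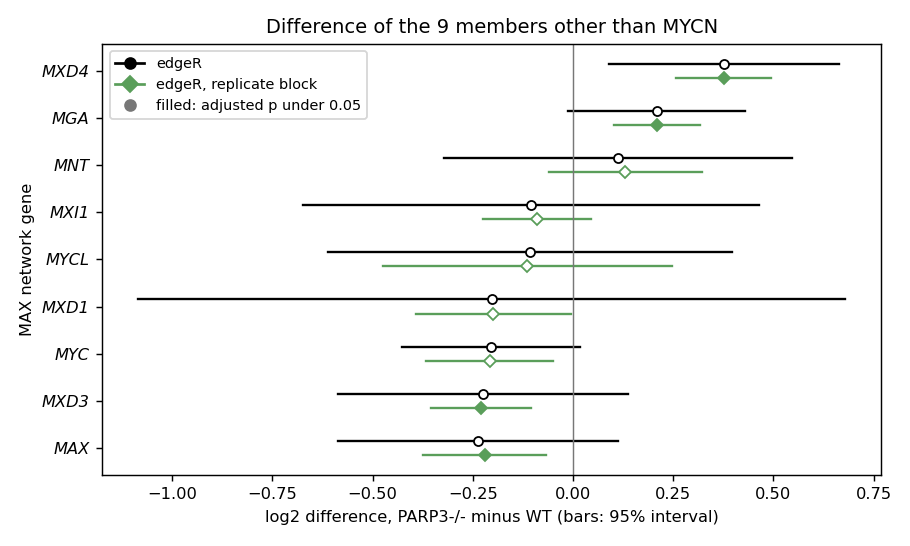
Log2 difference (PARP3-/- minus WT) of the 9 members other than MYCN with its 95% interval, from edgeR without (black circles) and with the replicate block (green diamonds), where filled symbols passed an adjusted p of 0.05. All black symbols are open and lie between −0.24 and 0.38, and the filled diamonds are MXD4 and MGA above 0 and MXD3 and MAX below 0.

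Among the activators, MYC did not rise in PARP3-/- cells. MYC (ENSG00000136997, chr8:127735434-127741434), the member used by most dividing cells, stood at 34.3, 35.1 and 33.1 CPM in WT and 27.7, 28.0 and 33.2 CPM in PARP3-/- libraries. In replicates 1 and 2 it was lower in the PARP3-/- library and in replicate 3 the pair was level, so the ranges just overlapped. The log2 difference was −0.20 (95% interval −0.43 to 0.02), with an adjusted p of 0.349 in edgeR. With the replicate block it was −0.21 (−0.37 to −0.05), with an adjusted p of 0.0584 in edgeR, so the interval holds no increase and the call still fell short of the threshold.

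MYCL (ENSG00000116990, chr1:39895426-39902256), the family member first known from lung cancer, was scarce in both genotypes. It had 54, 83 and 70 counts in WT and 37, 81 and 65 in PARP3-/- libraries, or 1.72 ± 0.250 and 1.59 ± 0.316 CPM (SD, n = 3). The ranges overlapped, and the log2 difference of −0.11 had an interval of −0.61 to 0.40 (adjusted p = 0.896 in edgeR). In the fit with the replicate block the interval was −0.47 to 0.25 (adjusted p = 0.671 in edgeR).

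MAX (ENSG00000125952, chr14:65006174-65102695), the shared partner without which MYC proteins do not bind E-boxes, was at 49.5, 35.6 and 35.1 CPM in WT and 36.8, 33.1 and 32.1 CPM in PARP3-/- libraries. Replicate 1 was the highest library in each genotype, and the ranges overlapped. The log2 difference was −0.24 (95% interval −0.59 to 0.11, adjusted p = 0.525 in edgeR), and −0.22 (−0.37 to −0.07, adjusted p = 0.0404 in edgeR) with the replicate block, where MAX was called lower. The pair differences were −0.43, −0.10 and −0.13.

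Of the repressive partners, MXD4 gave the largest upward difference. MXD4 (ENSG00000123933, chr4:2247432-2262294), a MAX dimerization protein that opposes MYC and is associated with cells leaving the cycle, was at 39.0, 31.7 and 32.8 CPM in WT and 50.9, 42.5 and 40.8 CPM in PARP3-/- libraries. Each PARP3-/- library lay above each WT library. The means were 34.5 ± 3.93 and 44.8 ± 5.42 CPM (SD, n = 3), a fitted increase of 29.8%.

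The log2 difference of MXD4 was 0.38 (SE 0.12, 95% interval 0.09 to 0.66), with an adjusted p of 0.171 in edgeR and 0.108 in DESeq2, so it did not pass without the block. With the replicate block the log2 difference was again 0.38 (0.26 to 0.49) and the adjusted p 0.000524 in edgeR. The pair differences of 0.39, 0.42 and 0.32 were close to each other.

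MGA (ENSG00000174197, chr15:41621224-41773081), the large MAX partner that anchors the Polycomb complex PRC1.6, was at 130.7, 110.4 and 117.6 CPM in WT and 148.5, 133.4 and 132.6 CPM in PARP3-/- libraries. These ranges did not overlap either, with means of 119.6 ± 10.3 and 138.2 ± 8.98 CPM (SD, n = 3). The log2 difference of MGA was 0.21 (95% interval −0.01 to 0.43, adjusted p = 0.338 in edgeR), and 0.21 (0.10 to 0.32, adjusted p = 0.00993 in edgeR) with the replicate block. Among the repressive partners, MXD4, MGA and MNT lay above 0 and MXD3, MXI1 and MXD1 below it. Without the block only the 95% interval of MXD4 lay clear of 0. The signs of MNT, MXI1 and MXD1 turned when 1 library was left out, so no direction is drawn for these genes.

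MXD3 (ENSG00000213347, chr5:177301461-177312757), a MAX dimerization protein known from dividing cells, lay on the other side of 0. It was at 30.6, 39.7 and 38.7 CPM in WT and 25.5, 35.7 and 32.0 CPM in PARP3-/- libraries, lower in the PARP3-/- library of every pair although the ranges overlapped. The log2 difference was −0.23 (95% interval −0.59 to 0.14, adjusted p = 0.571 in edgeR), and −0.23 (−0.35 to −0.10, adjusted p = 0.0134 in edgeR) with the replicate block. Exons of MXD3 share 19.5% of their bases with RAB24 on the same strand and 24.2% with PRELID1 on the opposite strand, so its counts are less certain than those of the other members.

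MNT, MXI1 and MXD1 did not pass the test under either fit. MNT (ENSG00000070444, chr17:2384060-2401118), the most widely expressed MYC antagonist, was at 14.98, 9.39 and 11.6 CPM in WT and 14.6, 11.8 and 12.4 CPM in PARP3-/- libraries, with a log2 difference of 0.11 (95% interval −0.32 to 0.55). MXI1 (ENSG00000119950, chr10:110207605-110287365) was at 53.7, 31.0 and 36.2 CPM in WT and 47.7, 32.3 and 32.4 CPM in PARP3-/- libraries, with a log2 difference of −0.10 (−0.67 to 0.46). For MXI1, as for MNT, the ranges overlapped almost wholly.

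MXD1 (ENSG00000059728, chr2:69897688-69942945), which rises as many cell types differentiate, was at 13.3, 6.84 and 6.63 CPM in WT and 11.6, 5.68 and 6.06 CPM in PARP3-/- libraries. In both genotypes replicate 1 stood far above replicates 2 and 3. The log2 difference of −0.20 therefore had the widest interval of the 9 without the block, −1.09 to 0.68. With the block its adjusted p was 0.130 in edgeR, beside 0.315 for MNT and 0.329 for MXI1.

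To set MYCN against its relatives, levels were divided by the deposited median transcript length of each gene and are given in CPM per kb. In WT cells the order was MXD4 (55.3), MAX (55.02), MXI1 (45.6), MGA (34.4), MYC (25.04), MXD3 (24.5), MNT (20.6), MXD1 (9.68), MYCN (7.02) and MYCL (0.948). Of the 9 neighbouring pairs in this order, 3 had WT ranges that did not overlap. These were MGA above MYC, MNT above MXD1 and MYCN above MYCL. The WT ranges of the other 6 pairs overlapped. Of these, MAX was above MXI1 and MXI1 above MGA within each WT library, whereas the order of the rest changed between libraries. MYCN thus ranked 9 of 10 by this scale in WT cells, and in PARP3-/- cells it was the lowest, at 0.140 ± 0.0957 CPM per kb (SD, n = 3).

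This order depends on the length used. With the MANE Select transcript, a single reference transcript that MGA lacks in the annotation used, MXD3 ranked 1, MAX 2, MXI1 3, MYC 4, MXD4 5 and MYCN 6 of 9 in WT cells. The deposited median length was 2147.5 bases for MYCN and 1365 for MYC, whereas the MANE Select transcripts were 2613 and 3721 bases long. The ratio of MYC to MYCN in WT cells was accordingly 3.57 by the deposited length, 1.59 by MANE Select and 1.022 by exon union length, the length of all annotated exons merged, by which MYCN ranked 6 of 10.

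The summed level of MYCN, MYC and MYCL was lower in PARP3-/- cells under each length. By the deposited length the WT libraries held 33.0, 31.0 and 35.1 CPM per kb and the PARP3-/- libraries 21.2, 21.6 and 25.4, with no overlap. The log2 difference of the summed level was −0.54, and −0.86 by MANE Select length and −1.11 by exon union length. Since MYCN chose the set, no test is given for this sum.

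MYCN supplied 21.0 ± 7.31% (SD, n = 3) of the summed level in WT cells, with 21.4%, 13.5% and 28.1% in the libraries, and 0.631 ± 0.468% (SD, n = 3) in PARP3-/- cells. MYC supplied 76.1% and 95.5% on average, and MYCL 2.89% and 3.85%. The shares of MYC and MYCL were thus higher because they are parts of a smaller sum, while neither gene was higher in level. Under MANE Select and exon union lengths the WT share of MYCN was 36.5% and 46.6%.

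A rise of MYC by 0.35 on the log2 scale (27.5%) would have replaced the MYCN that was lost, counted per kb of the deposited length. By MANE Select it would have taken 0.69, and by exon union 0.97. The upper limit of the 95% interval of MYC was 0.02, below each of these. No increase of MYC RNA of the size needed to replace MYCN lay within its interval, and protein was not measured here.

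**Figure D3:**
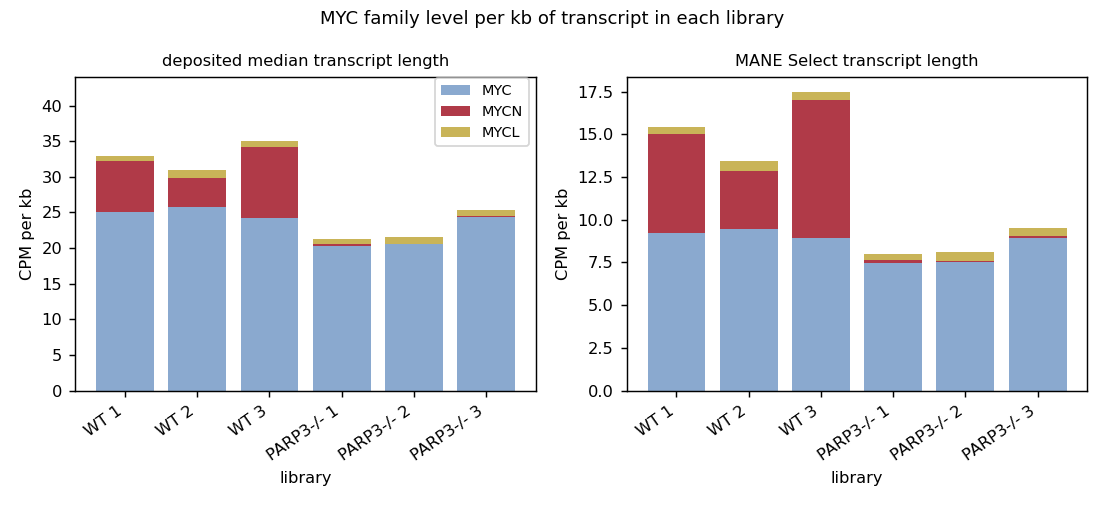
Level of MYCN, MYC and MYCL in CPM per kb, stacked for each of the 6 libraries, with 1 panel for the deposited median length and 1 for the MANE Select length, on linear axes that start at 0. The MYCN segment is visible in the 3 WT bars and nearly absent in the 3 PARP3-/- bars, and the mean MYC level is 25.04 CPM per kb in WT and 21.7 in PARP3-/- cells by the deposited length, with replicate 3 level between genotypes.

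Partners, regulators and targets of the network were read from 7 lists with 119 tested genes. By edgeR 2 of them were called, both lower, FBXW7 and NDRG2, beside 3.33% of all tested genes lower and 1.36% higher. DESeq2 called 4 lower and 1 higher, beside 3.84% and 2.09% of the genes it tested. With the replicate block in edgeR 21 were lower and 6 higher, beside 12.5% and 11.8%. The median log2 difference of the 119 genes was −0.05, beside −0.01 for all tested genes.

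The 70 tested MYC target genes, which serve ribosome production, nucleotide synthesis, glycolysis and the cell cycle, held no call in edgeR without the block. By that fit 0 of 70 were called, beside 4.7% of all tested genes, with 12 at an unadjusted p under 0.05 (10 lower and 2 higher), beside 16.3%. DESeq2 called 2, both lower, beside 5.93% of the genes it tested. With the replicate block 17 were lower and 4 higher, beside 12.5% and 11.8% of all tested genes. Their median log2 difference was −0.08, beside −0.01 for all tested genes, with 51 below 0 and 19 above. The share of all tested genes below 0 was not counted, and no set test was run.

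GNL3, a nucleolar GTPase of dividing cells, was at 159.9, 176.2 and 164.7 CPM in WT and 130.2, 129.5 and 137.9 CPM in PARP3-/- libraries, with no overlap. Its log2 difference of −0.33 had an adjusted p of 0.0608 in edgeR, 0.0104 in DESeq2 and 0.00111 in edgeR with the replicate block. HK2, which opens glycolysis, was at 106.3, 85.0 and 80.0 CPM in WT and 65.1, 64.0 and 61.7 CPM in PARP3-/- libraries, with a log2 difference of −0.51 and adjusted p-values of 0.0611 in edgeR and 0.00644 in DESeq2.

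Other targets bore the same or the opposite sign. NPM1, a nucleolar chaperone, had a log2 difference of −0.27 (adjusted p = 0.217 in edgeR and 0.00599 with the replicate block), and ODC1, the first enzyme of polyamine synthesis and a classical MYC target, one of 0.06 (adjusted p = 0.895 in edgeR). SLC7A5, a transporter of large amino acids, had 0.36 (adjusted p = 0.296 in edgeR and 0.00292 with the replicate block). GNL3, HK2, NPM1, ODC1 and SLC7A5 are named after their values were seen.

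**Figure D4:**
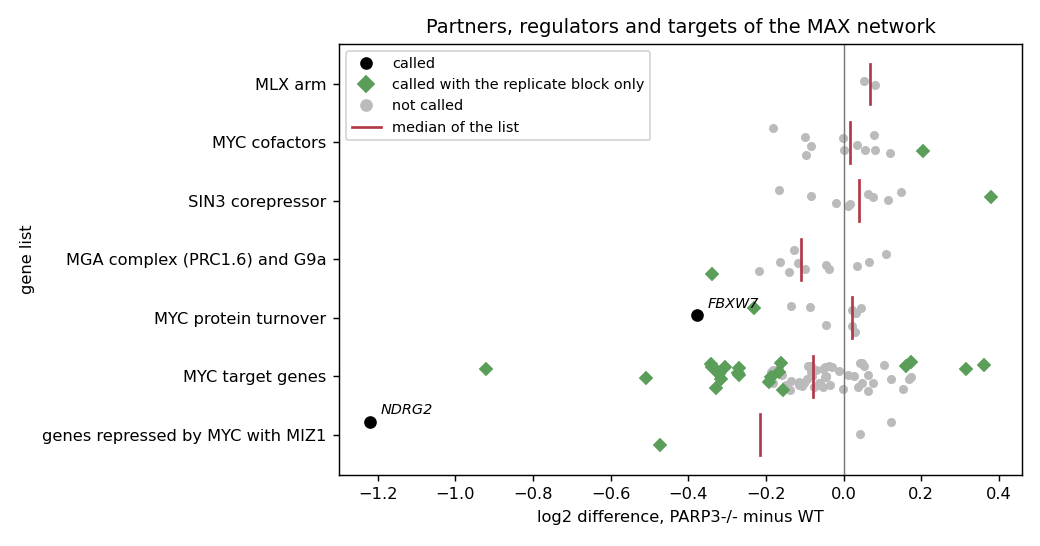
Log2 difference (PARP3-/- minus WT) of each tested gene in 7 lists of MAX network partners, regulators and targets, 1 point per gene, with black circles for edgeR calls without the replicate block, green diamonds for calls with the block only, grey circles for genes not called, and a bar at each list's median. List medians lie between −0.21 and 0.07, and FBXW7 and NDRG2 are the genes called without the block.

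FBXW7, the substrate receptor of the ubiquitin ligase that marks MYC and MYCN proteins for degradation, was lower in PARP3-/- cells. It was at 43.4, 42.5 and 44.8 CPM in WT and 34.3, 32.3 and 34.1 CPM in PARP3-/- libraries, with no overlap. The log2 difference was −0.38 (SE 0.07, adjusted p = 0.0283 in edgeR, 0.00145 in DESeq2). With 1 library left out it stayed between −0.40 and −0.35 but passed the threshold in 1 of the 6 such fits, without WT replicate 1, where the adjusted p was 0.0436 in edgeR. Of the 11 genes tested in protein turnover of MYC, FBXW7 was the 1 called by edgeR and by DESeq2, beside 4.7% and 5.93% of all genes they tested. CIP2A was also lower with the replicate block (adjusted p = 0.0459 in edgeR), making 2 of 11 beside 24.3%. AURKA, which shields MYCN from FBXW7, had a log2 difference of 0.03, and AURKA and CIP2A are named after their values were seen.

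NDRG2, a gene that MYC represses together with MIZ1, was at 5.23, 6.08 and 7.29 CPM in WT and 2.72, 2.87 and 2.38 CPM in PARP3-/- libraries, again with no overlap. Its log2 difference was −1.22 (SE 0.17, adjusted p = 0.00954 in edgeR), and the adjusted p was 0.0571 without PARP3-/- replicate 3. NDRG1 of the same list had a log2 difference of −0.47 (adjusted p = 0.283 in edgeR and 0.000842 with the replicate block). Of the 4 tested genes of this list 1 was lower by edgeR and 0 were higher, beside 3.33% and 1.36% of all tested genes. The paper already reports NDRG1 and NDRG2 as lower in PARP3-deficient LN229 cells by RT-qPCR, so this count is a description only.

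Few genes of the machinery that the MAX network recruits passed a test. In the lists of MYC cofactors (12 tested), SIN3 corepressors (10), the PRC1.6 complex with the G9a methyltransferase (12) and the MLX arm (2), which pairs with some MXD proteins, edgeR called 0 genes, beside 4.7% of all tested genes. At an unadjusted p under 0.05 there were 0, 1, 1 and 0, respectively, beside 16.3%. With the replicate block in edgeR TRRAP, a MYC cofactor, was called higher (adjusted p = 0.0133), SIN3A higher (0.000383) and CBX3 of the PRC1.6 list lower (0.000823), beside 24.3% of all tested genes. TRRAP, SIN3A, CBX3 and EHMT2 are named after their values were seen. DESeq2 called 1 of these genes, SIN3A, as higher, beside 5.93% of all genes it tested (2.09% higher). SIN3A, the scaffold that MXD proteins bind, was at 58.7 ± 5.08 CPM in WT and 76.4 ± 2.67 CPM in PARP3-/- cells (SD, n = 3). Its log2 difference was 0.38, with adjusted p-values of 0.0600 in edgeR and 0.0166 in DESeq2. EHMT2, which encodes G9a, had a log2 difference of 0.06 (95% interval −0.10 to 0.23).

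None of the genes around MYCN that edgeR tested passed its threshold. Of 18 further genes that start within 2 Mb of MYCN, 6 were tested, with 0 called by edgeR (4.7% of all tested genes were) and 0 called with the replicate block (24.3%). At an unadjusted p under 0.05 there were 0 without the block, beside 16.3% of all tested genes. With the block there were 3, VSNL1, SMC6 and KCNS3. At least 24.3% of all tested genes passed that limit with the block, and no result is drawn from these 3. The nearest of the 6 tested genes, DDX1, a helicase gene often amplified with MYCN, had 7951, 10600 and 10424 counts in WT and 6631, 10748 and 9119 in PARP3-/- libraries, a log2 difference of −0.04 (95% interval −0.27 to 0.18). The other 5 were NBAS (log2 difference 0.01), SMC6 (0.13), GEN1 (0.08), KCNS3 (−0.13) and VSNL1 (1.096, 95% interval −0.06 to 2.25, from 2 to 16 counts a library).

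Some low genes of the region were not seen in PARP3-/- libraries. MYCNOS, the antisense gene at MYCN, had 7, 4 and 7 counts in WT and 0 in each PARP3-/- library, FAM49A 6, 7 and 6 against 0, and FAM84A 3, 5 and 3 against 0. These 3 genes fell below the filter of edgeR. DESeq2 called 2 genes of the region, MYCNOS (adjusted p = 0.0261) and FAM49A (0.0173), beside 5.93% of all genes it tested. FAM84A was not called (adjusted p = 0.160 in DESeq2). The fourth gene of the region with a WT sum in the same range of 11 to 19 counts was RAD51AP2, at 2, 3 and 6 against 0, 5 and 4.

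Over all genes with a WT sum in that range, 71 of 2020 (3.51%) were at 0 in every PARP3-/- library. The range was set by these genes after their counts were seen. MYCNOS overlaps 98 exon bases of MYCN on the opposite strand, and whether the counting used strand is not stated. Without strand, reads in these bases would be dropped as shared by both genes, and with strand they would be kept apart. At the MYC locus PVT1, a noncoding neighbour of MYC, had 489, 476 and 435 counts in WT and 300, 451 and 397 in PARP3-/- libraries. In CPM these were 13.4, 11.3 and 10.6 against 9.96, 10.1 and 10.5, ranges that just missed overlap. Such separation in either direction was found for 22.8% of all tested genes. The log2 difference of PVT1 was −0.21 (adjusted p = 0.469 in edgeR).

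**Figure D5:**
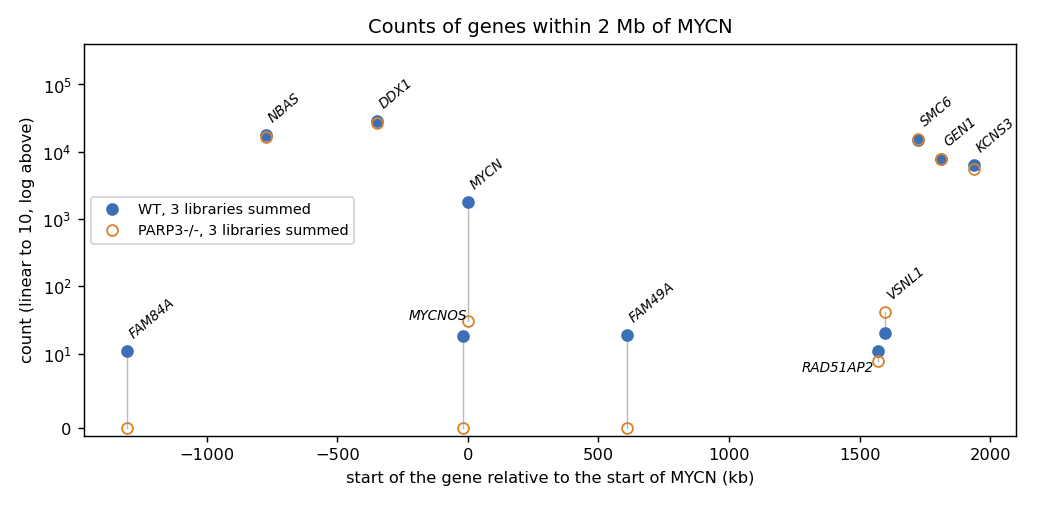
Counts summed over the 3 libraries of each genotype for MYCN and the tested or named genes within 2 Mb, against the distance of their start from that of MYCN in kb, on an axis that is linear up to 10 counts and logarithmic above. The symbols of the tested neighbours nearly coincide between genotypes except those of VSNL1, and MYCNOS, FAM49A and FAM84A drop from sums of 11 to 19 to 0.

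The genes whose pattern was most like that of MYCN were ranked by Pearson's r of log2 CPM over the 6 libraries, as a description. They were KAT2B (r = 0.9995), a histone acetyltransferase, DIP2B (0.998), SGCD (0.997), a part of the sarcoglycan complex, WDR48 (0.997), a partner of deubiquitinating enzymes, and RNF125 (0.996), a ubiquitin ligase. With 6 libraries in 2 groups many genes share such a pattern, and 457 of 17143 had an r above 0.95. SGCD was the one of the 5 with a difference near that of MYCN, at −5.14 on the log2 scale, and the others lay between −1.47 and −0.31.

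Among the listed glial and glioma markers, VIM, NES and EGFR were present, whereas GFAP had at most 17 counts in a library. No cell identity is drawn from these. Of the 7 tested genes of this list edgeR called 1, beside 4.7% of all tested genes. DESeq2 called 2, S100B and OLIG2, beside 5.93%, and the replicate block 4, SOX2, OLIG2, S100B and CD44, all lower, beside 24.3%. S100B was at 194.2 ± 44.3 CPM in WT and 93.1 ± 13.8 CPM in PARP3-/- cells (SD, n = 3, log2 difference −1.06, adjusted p = 0.0256). The epithelial keratin gene KRT8 was also lower (log2 difference −0.74, adjusted p = 0.0194 in edgeR), and KRT18 had a log2 difference of −0.41 (adjusted p = 0.0808 in edgeR and 0.0265 in DESeq2), while EPCAM had at most 3 counts and CDH1 at most 2. Of the immune markers PTPRC had at most 4 counts and CD68 8 to 16, and of the endothelial markers PECAM1 had at most 4, CDH5 at most 1 and VWF 9 to 26. CD68 and VWF were tested and not called (log2 differences 0.49 and −0.95), and the neuronal markers STMN2 and RBFOX3 had at most 1 count. The part of these differences in that of MYCN was not tested.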

How the data were processed

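RNA of 3 WT and 3 PARP3-/- LN229 cultures was sequenced by the authors as stranded, ribosome-depleted total RNA in single reads of 50 bases, although the labels name polyA RNA. Reads were trimmed with cutadapt, cleared of ribosomal and spike-in reads with Bowtie2, aligned to hg38 with STAR and assigned to genes of Ensembl 91 by htseq-count, whose union mode drops reads shared by genes. The deposited values used are these raw counts and the authors' median transcript length per gene. The authors' fold changes and p-values, and 12 further columns of normalized values per sample, were not used. Samples were grouped by the genotype in their labels.

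Counts of genes passing filterByExpr (minimum count 10) were scaled by TMM and tested with edgeR 4.0.16 (quasi-likelihood, R 4.3.3), with Benjamini-Hochberg adjustment over all 17144 genes and an adjusted p limit of 0.05. SEs were taken from the F statistic. The procedure was tested on simulated counts with the same dispersion for all genes and no replicate effect. That test does not cover the spread between replicates in these libraries. Alternatives were DESeq2 1.42.0, median-of-ratios scaling, no filter, a mean count of at least 50, a limit of 0.001 with a log2 difference beyond 1, each library left out in turn and the replicate number as a block. The labels number the replicates 1 to 3, and deviations from the genotype means correlated at 0.633, 0.465 and 0.208 for the same number (−0.581 to 0.361 for other pairs). The numbers were taken as pairs, although the correlations mainly set replicate 1 apart and do not clearly match replicates 2 and 3 by number. No 2 replicates agreed within sampling noise (lowest chi-square per degree of freedom 3.80).

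The members and gene lists were chosen with earlier results of these data known. Named are all members, PARP3, at most 4 called genes of each list by smallest p, neighbours of MYCN (2 Mb) and MYC (1 Mb), the 5 genes most like MYCN over log2 CPM (prior count 0.5) and glial markers, and others are marked where they occur. Of the list genes, 8 were not analysed here. Promoters came from RefSeq, and exon lengths and overlaps from GENCODE 44. The MANE Select length, the E2F-type words and the low genes near MYCN were added after the data were seen. With 29692065 to 46010369 counts per library, 3 counts were taken as the limit of detection, and this covers counting error only.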

Additional observations from a re-analysis of the deposited data

How the results depend on the processing

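The precision of these results is limited by 3 libraries a genotype, by replicate 1 standing apart for several members, and by gene lengths for levels per kb. Over all tested genes, DESeq2 called 871 lower and 475 higher, the replicate block 2143 and 2023, and the stricter limits 76 and 6, while a mean count of at least 50 left 331 lower. With 1 library left out the range was 281 to 606 lower and 49 to 259 higher, with the lowest counts without PARP3-/- replicate 2 (281) for lower and without WT replicate 3 (49) for higher genes. Among the 10 members, MYCN included, the replicate block gave 3 lower and 2 higher, and the stricter limits 0 lower. In the 7 network lists DESeq2 gave 4 lower and 1 higher, the replicate block 21 lower and 6 higher, the stricter limits 0 lower, and leaving out 1 library 0 (without PARP3-/- replicate 3) to 4 (without WT replicate 1) lower. The summed MYC family level differed by −1.11 with exon union and −0.86 with MANE Select lengths, with a MYCN share of 46.6% and 36.5%, and when leaving out 1 library by −0.62 to −0.49, with a share of 17.4% to 24.7%. Leaving out 1 library turned the sign of uncalled genes, with log2 ranges of −0.22 to 0.039 for MYCL, −0.040 to 0.30 for MNT, −0.31 to 0.16 for MXI1, −0.60 to 0.20 for MXD1, −0.058 to 0.092 for NBAS, −0.089 to 0.18 for GEN1 and −0.24 to 0.019 for KCNS3. Of the values of single genes under the alternatives, 232 kept their direction and side of the threshold, 6 newly passed it, 16 no longer passed it and 9 turned sign. Causes were not tested.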

Other observations

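Several members differed more between replicate 1 and the other replicates than between genotypes. MXD1 in replicate 1 lay 0.98 above the mean of replicates 2 and 3 on the log2 scale in WT and 0.98 above it in PARP3-/- cells, and MXI1 lay 0.68 and 0.56 above it. MXD3 lay on the other side, at −0.36 and −0.41, whereas MYC was at 0.01 and −0.14. For MYCN the values were 0.14 in WT and 1.57 in PARP3-/- cells, the latter from 16, 6 and 9 counts.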
